A study of Mus musculus with 4 samples.

Results

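Expression of 42 genes of mitosis and the G2/M transition was compared between knockout and wild-type embryonic mouse brain. The genes were taken by name from a set of cell division genes, and all 42 were present in both deposited tables, among 19150 genes shared by these tables and 15708 with enough reads for a test. The title of the series states a deletion of macroH2A, a histone H2A variant with a large extra domain, and every sample is C57BL/6 brain at E13.5, labelled KO (libraries KO2 and KO4) or WT (libraries WT6 and WT8). The targeted gene, the allele and any Cre driver are not given in the sources used here, and the numbers in the names do not match KO libraries to WT libraries. H2afy, which encodes macroH2A1, had 1368 and 1267 reads in KO against 5538 and 5593 in WT (edgeR adjusted p = 0.00167), while H2afy2, the other macroH2A gene, had 3487 and 3781 against 3303 and 2910. Pairs of values are given throughout in the order KO2, KO4 for KO and WT6, WT8 for WT.

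Cells in G2 and mitosis transcribe a shared programme. Cyclin B with CDK1 drives entry into mitosis, spindle and kinetochore proteins attach and move the chromosomes, the checkpoint holds anaphase back, and the anaphase-promoting complex (APC/C) ends mitosis by marking cyclin B and securin for destruction. Many of these genes are controlled through a promoter element called the CHR (cell cycle genes homology region), bound by the MuvB complex with B-Myb and FoxM1, and through CCAAT boxes bound by NF-Y. In the embryonic brain the dividing cells are mainly radial glia, which divide at the ventricular surface, and intermediate progenitors, while newborn neurons have left the cycle. In whole brain tissue, fewer dividing cells and less of a transcript per dividing cell cannot be told apart.

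The promoters share short motifs that the choice of genes did not use. Stretches from 120 bases before to 30 bases after the RefSeq transcription start (GRCm38.p6) are printed, 5′ to 3′ on the strand of the gene. They are those of the 4 members with the smallest p that had a promoter entry (Prc1, Ttk, Ckap2l, Cenpf). Added to them are Cdc20, Ube2c and Ccnb2, at ranks 1, 2 and 4 of the members in level per length. Cdca3, at rank 3, was passed over. Capitals mark each whole TTTGAA, the CHR core, each TTTAAA, a variant of it, and each CCAAT, with their reverse complements TTCAAA and ATTGG.
Prc1, chr7:80294331-80294480, plus strand: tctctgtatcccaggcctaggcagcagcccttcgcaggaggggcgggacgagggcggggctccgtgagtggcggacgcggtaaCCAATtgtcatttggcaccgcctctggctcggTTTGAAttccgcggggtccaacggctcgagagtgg
Ttk, chr9:83834569-83834718, plus strand: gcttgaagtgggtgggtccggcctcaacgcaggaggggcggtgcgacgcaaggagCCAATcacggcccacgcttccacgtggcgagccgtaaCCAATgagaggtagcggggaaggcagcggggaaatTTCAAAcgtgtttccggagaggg
Ckap2l, chr2:129297183-129297332, minus strand: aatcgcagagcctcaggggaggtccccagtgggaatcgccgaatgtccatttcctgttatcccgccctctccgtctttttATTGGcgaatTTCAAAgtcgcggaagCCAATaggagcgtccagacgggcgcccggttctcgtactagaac
Cenpf, chr1:189688057-189688206, minus strand: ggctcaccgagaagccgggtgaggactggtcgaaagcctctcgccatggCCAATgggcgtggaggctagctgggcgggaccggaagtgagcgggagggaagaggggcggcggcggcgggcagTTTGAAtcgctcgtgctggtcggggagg
Cdc20, chr4:118437314-118437463, minus strand: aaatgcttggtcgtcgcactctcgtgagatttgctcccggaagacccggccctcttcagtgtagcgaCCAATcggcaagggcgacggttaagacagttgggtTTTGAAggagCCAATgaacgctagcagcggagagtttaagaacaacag
Ube2c, chr2:164769809-164769958, plus strand: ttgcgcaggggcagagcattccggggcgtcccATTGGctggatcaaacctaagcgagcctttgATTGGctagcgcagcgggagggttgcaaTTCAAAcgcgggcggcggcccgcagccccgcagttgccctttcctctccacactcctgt
Ccnb2, chr9:70421525-70421674, minus strand: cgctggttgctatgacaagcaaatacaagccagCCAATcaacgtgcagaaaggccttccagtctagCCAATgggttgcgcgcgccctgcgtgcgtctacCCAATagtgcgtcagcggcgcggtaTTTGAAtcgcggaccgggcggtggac

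Each of these 7 stretches holds a CHR core close to the start and at least 1 CCAAT box. That all of them do rests on the genes chosen. In Cdca3, which was not printed, TTTGAA begins at position 31 of the transcript, past the end of such a stretch. The core begins 5 bases before the start in Prc1, 18 before it in Cdc20, 29 before it in Ube2c and 30 before it in Ckap2l, and at positions 8, 3 and 5 of the transcript in Ttk, Cenpf and Ccnb2. In Prc1 the CCAAT box begins 37 bases before the start and in Cdc20 the first printed box begins 53 before it.

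Over the whole RefSeq window of 300 bases (250 before the start and 50 from it on), 35 of the 42 members had a promoter in the table, and Ccna2, Cdc25c, Aurkb, Incenp, Spc24, Tpx2 and Cdca2 did not. TTTGAA on either strand was found in 25 of the 35 (71.4%), against 11.4% of the 11050 tested genes matched by symbol and 18.1% of all 27025 genes in the table. TTTGAA or TTTAAA was found in 28 members (80.0%), against 18.5% of tested genes, and within 50 bases of the start in 25 members (71.4%) against 4.81%. CCAAT on either strand was found in 27 members (77.1%) against 38.4% of tested genes. Among genes of DNA replication and S phase, which peak earlier in the cycle, 8 of 34 promoters (23.5%) held TTTGAA or TTTAAA and 21 (61.8%) held CCAAT. The lists nearest to the members in function also held TTTGAA or TTTAAA often, in 10 of 12 mitotic kinesin promoters (83.3%), 13 of 22 further G2/M genes (59.1%) and 15 of 29 centromere and kinetochore genes (51.7%). Of the members, Bub1, Melk, Mad2l1, Nuf2, Nusap1, Cdc25b and Pttg1 had a promoter entry without TTTGAA or TTTAAA in the window, which says only that these letters are not there. Matches of CCAAT and of its reverse complement ATTGG may share bases, as they do in Ube2c. The 28 members with TTTGAA or TTTAAA had a median log2 fold change, KO over WT, of 0.10 (18 above 0). The 7 without these letters had 0.10 (5 above 0).

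**Figure D1:**
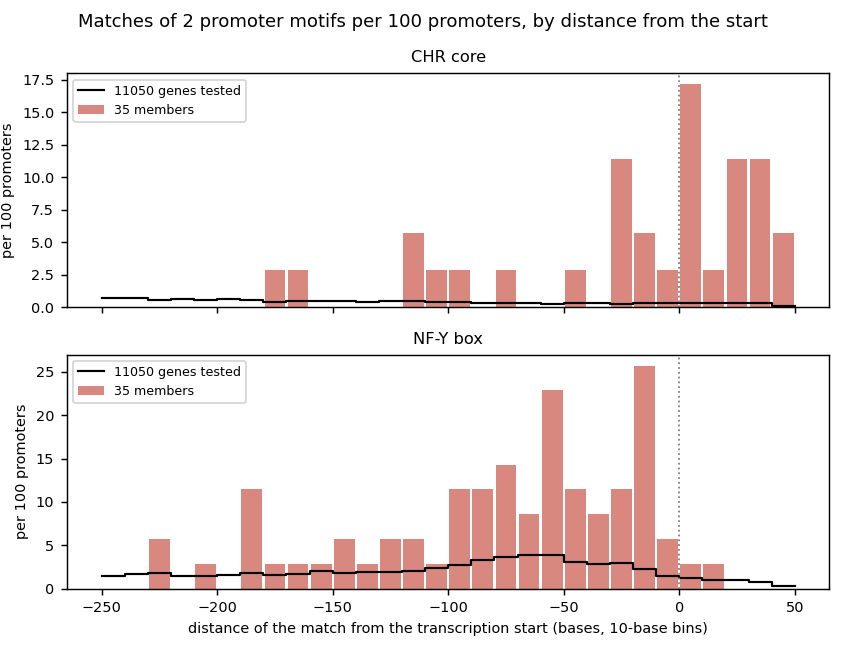
Matches of the CHR core (upper panel) and of the NF-Y box (lower panel, the CCAAT sequence), on either strand, per 100 promoters in bins of 10 bases along the distance from the transcription start. Bars are the 35 members with a promoter entry and the line is the 11050 tested genes; the fullest bin of the CHR core in the members lies directly after the start and holds 17.1 matches per 100 promoters.

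None of the 42 genes differed between knockout and wild-type brain by the test over all genes. Of the members, 0 were called higher and 0 lower at an edgeR adjusted p under 0.05 (background 0.0% higher and 0.00637% lower, the latter being H2afy alone), and the smallest adjusted p of a member was 0.743. At an unadjusted p under 0.05, 6 members lay above 0 (Ttk, Prc1, Ckap2l, Ccna2, Cenpf and Aspm) and 0 below, against 2.44% of all tested genes above and 2.26% below. DESeq2 was run on all 19150 shared genes, without the filter for enough reads, and its shares are over these genes. DESeq2 also called 0 members (background 0.0104% higher and 0.0104% lower), with 4 higher and 0 lower at an unadjusted p under 0.05 (0.71% and 0.924%). The same held for limma-voom, with 6 higher and 0 lower (2.52% and 2.13%), and both tools placed 27 members above 0 (48.9% and 49.6% of genes). The log2 fold change, KO over WT, was above 0 for 27 of 42 members (48.9% of all genes), its median was 0.09 against -0.01 over all genes, and it ran from -0.23 to 0.51. The median 95% interval of a member reached 0.24 to either side. With the adjustment over all genes larger differences did not pass either, up to that of Prc1 at 0.51.

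The number of members with a small p, and the side of 0 on which they lay, depended on single libraries. Ttk, Prc1, Ckap2l, Ccna2, Cenpf and Aspm themselves stayed above 0 in every fit. Without WT6, 4 members lay above 0 and 9 below at an unadjusted edgeR p under 0.05 (6.9% and 8.98% of genes), and without WT8 the counts were 10 and 0 (4.32% and 3.76%). Without KO2 they were 3 and 0 (1.17% and 0.832%) and without KO4 0 and 0 (0.339% and 0.463%). The members' median was 0.14 without KO2, 0.04 without KO4, 0.03 without WT6 and 0.15 without WT8. In the same order 31, 26, 24 and 36 members lay above 0, against 49.6%, 48.4%, 51.8% and 50.6% of genes. In each of these fits the lone library of a genotype was assumed to vary as the other genotype did. With the deposited library pair as a block, 3 members were higher and 0 lower at an unadjusted edgeR p under 0.05 (0.993% and 0.598% of genes), and 27 lay above 0 (49.4%).

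For 27 members WT6 had the lowest value, and for 24 KO4 had the highest. Of all 15708 tested genes, 3247 had their lowest value in WT6 and 4051 their highest in KO4. For 19 members the KO values were both above the WT values, against 20.1% of all tested genes, and for 3 members (Spc24, Cdc25c and Espl1) both were below, against 19.4%. The genotypes overlapped for the other 20 members, and 39.4% of all genes showed no overlap in one direction or the other. With 2 libraries against 2, an exact two-sided permutation test of a single gene cannot give a p below 0.333.

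**Figure D2:**
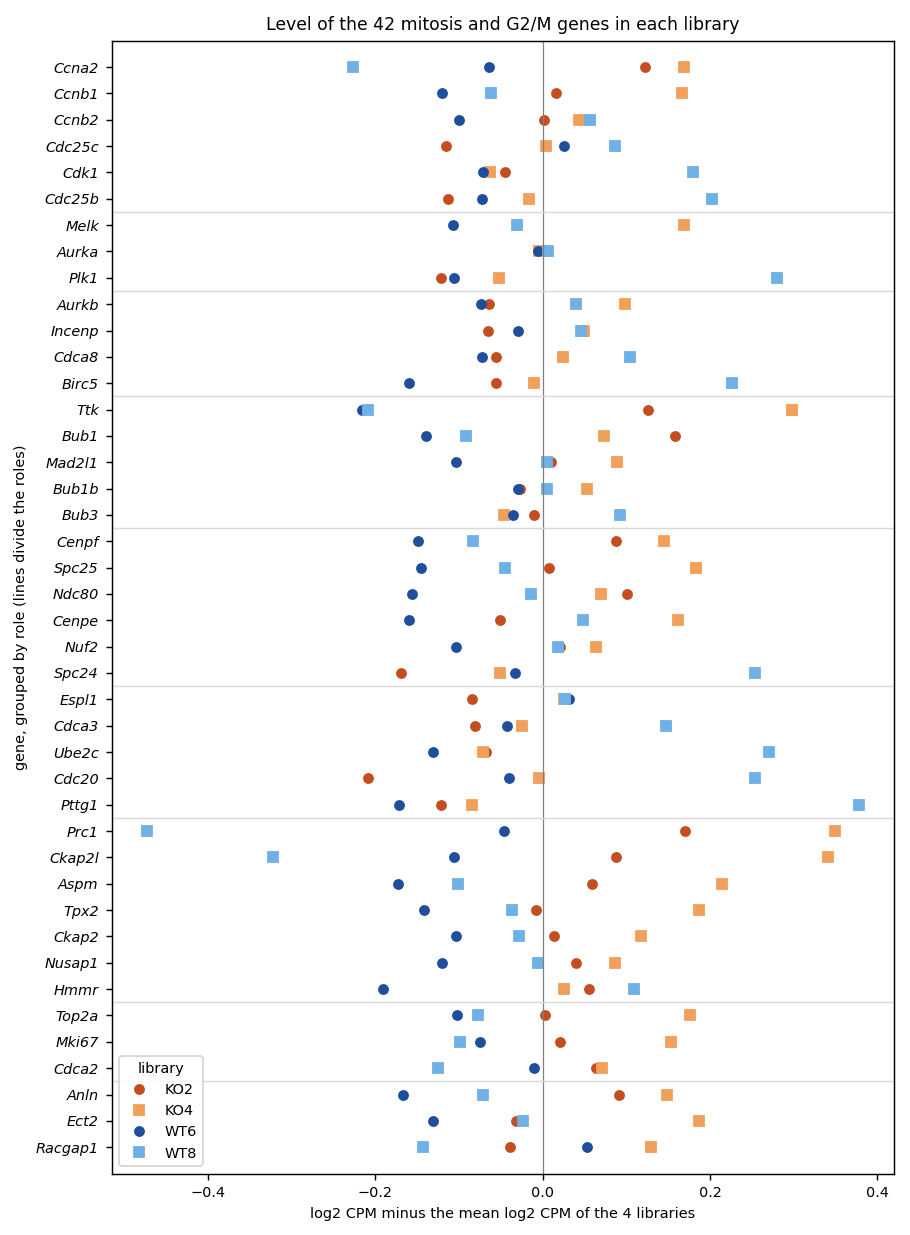
Level of each member in KO2, KO4, WT6 and WT8, as log2 CPM minus the mean log2 CPM of the 4 libraries on the horizontal axis, with the genes grouped by role. Orange points are KO and blue points WT; WT6 (dark blue circles) lies lowest for 27 genes, and for Prc1 WT8 lies far to the left of the other libraries.

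Of the 6 genes that drive entry into mitosis, 3 had values above 0 and 3 below, and 0 passed. Ccna2, the cyclin of S phase and G2 (chromosome 3, 36564865 to 36572150), had 79.2 and 81.8 CPM (read counts scaled to library size with TMM factors) in KO and 69.6 and 62.2 in WT. Both KO values were above both WT values. Its log2 fold change was 0.29 (SE 0.09, 95% interval 0.07 to 0.51, edgeR unadjusted p = 0.0163, adjusted p = 0.743). Of its merged exon bases 12.5% are shared with Exosc9 on the opposite strand, whose log2 fold change was 0.25, and without stated use of strand the reads of the pair cannot be told apart. Ccnb1, which encodes the main cyclin partner of CDK1 in mitosis, had 114 and 126 CPM in KO, 104 and 108 in WT, and a log2 fold change of 0.18 (SE 0.09, interval -0.03 to 0.40, edgeR unadjusted p = 0.0825, adjusted p = 0.743), with the genotypes again not overlapping. Cdk1 itself had 114 and 113 CPM in KO and 112 and 134 in WT, with WT8 high and the other 3 libraries nearly equal, and stood at -0.11. Ccnb2 stood at 0.04, and the genes of the CDK1-activating phosphatases, Cdc25b and Cdc25c, at -0.14 and -0.11. Cdc25c had 29.9 and 32.5 CPM in KO against 33.0 and 34.4 in WT, with a gap between genotypes smaller than the difference between the KO libraries.

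Of the 3 mitotic kinase genes outside the checkpoint, 1 lay above 0, and 0 passed. Aurka, the centrosomal Aurora kinase gene, had 61.7 and 61.4 CPM in KO and 61.3 and 61.8 in WT, nearly the same in all 4 libraries, and its log2 fold change was -0.00083 with an interval from -0.19 to 0.19. Plk1, whose kinase acts at centrosomes and kinetochores, stood at -0.19 and rested on WT8, which had 104 CPM against 78.6 to 82.5 in the other libraries, and it was 0.02 without WT8. Melk, a kinase gene of dividing progenitors, stood at 0.14. Of the chromosomal passenger complex, which corrects faulty attachments at the centromere and later acts at the midzone, Aurkb (the kinase) stood at 0.04, Incenp (the scaffold) at -0.02, Cdca8 (borealin) at -0.03 and Birc5 (survivin) at -0.08, and in all 4 genes the genotypes overlapped.

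The checkpoint genes were uneven. Ttk, which encodes the kinase MPS1 at the head of the spindle checkpoint (chromosome 9, 83834689 to 83872389), had 459 and 517 reads in KO against 340 and 317 in WT, or 25.0 and 28.2 against 19.8 and 19.9 CPM. Both KO libraries stood clear of the WT libraries, which were nearly identical. The log2 fold change was 0.43 (SE 0.12, interval 0.13 to 0.72), with the smallest unadjusted p of the set, 0.0114, and an edgeR adjusted p of 0.743. Bub1, a kinase that recruits other checkpoint proteins, had 38.5 and 36.3 CPM in KO against 31.3 and 32.4 in WT and stood at 0.23 (SE 0.10, interval -0.01 to 0.47, edgeR unadjusted p = 0.0538, adjusted p = 0.743). Mad2l1, the gene of the checkpoint effector MAD2, stood at 0.10, Bub1b at 0.03 and Bub3 at -0.06.

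Of the 6 kinetochore genes, 5 had values above 0 and 0 passed. Of the NDC80 complex, which binds microtubule ends, Spc25 had 70.4 and 79.5 CPM in KO and 63.3 and 67.9 in WT and stood at 0.19 (SE 0.10, interval -0.04 to 0.42, edgeR unadjusted p = 0.0871, adjusted p = 0.743). Ndc80 stood at 0.17 and Nuf2 at 0.08, and all 3 had their KO values above their WT values. The remaining subunit gene, Spc24, had 53.0 and 57.5 CPM in KO and 58.2 and 71.0 in WT and stood at -0.23 (interval -0.50 to 0.05), with KO below WT. Cenpf, a large kinetochore and nuclear matrix protein of G2 cells, had 66.4 and 69.0 CPM in KO and 56.3 and 58.9 in WT. The 2 libraries of each genotype were close together, and the log2 fold change was 0.23 (SE 0.08, interval 0.03 to 0.43, edgeR unadjusted p = 0.0281, adjusted p = 0.743). Cenpe, the gene of a kinetochore motor, stood at 0.11.

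The 5 genes of mitotic proteolysis all had values below 0 without passing, and 3 of them held the highest levels per length of the set. Per kilobase of merged exon, Cdc20, the activator of APC/C, averaged 89.3 CPM over the 4 libraries, Ube2c, its ubiquitin-conjugating enzyme, 80.3, and Cdca3, an adaptor in the destruction of WEE1, 48.2, while Anln was lowest of the 42 at 2.54. Cdc20 had 143 and 165 CPM in KO, 161 and 198 in WT, and a log2 fold change of -0.22 (SE 0.13, interval -0.52 to 0.08, edgeR unadjusted p = 0.129, adjusted p = 0.743). Ube2c had 198 and 197 CPM in KO and 189 and 250 in WT and stood at -0.15 (SE 0.14, interval -0.48 to 0.17, edgeR unadjusted p = 0.297, adjusted p = 0.772). Cdca3 had 130.4 and 136 CPM in KO and 134 and 153 in WT and stood at -0.11 (SE 0.10, interval -0.34 to 0.12, edgeR unadjusted p = 0.299, adjusted p = 0.773). For all 3, WT8 was the highest library and WT6 lay among the KO libraries or below them. Pttg1 (securin), on 145 to 197 reads, stood at -0.23 and also had its highest value in WT8, and Espl1 (separase) stood at -0.06. Without WT8 Ube2c and Pttg1 both stood at 0.07, Cdc20 at -0.06 and Cdca3 at -0.01.

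Spindle microtubule genes lay furthest above 0, and all 7 did so. Prc1, which encodes the protein that bundles antiparallel microtubules in the central spindle (chromosome 7, 80294450 to 80316259), had 697 and 789 reads in KO against 563 and 389 in WT, or 38.0 and 43.1 against 32.7 and 24.4 CPM. WT8 stood well below WT6, and both KO libraries lay above them. Its log2 fold change was 0.51 (SE 0.16, interval 0.13 to 0.88, edgeR unadjusted p = 0.0153, adjusted p = 0.743), and it was 0.73 without WT6 and 0.31 without WT8. Of its merged exon bases 11.1% are shared with Rccd1 on the opposite strand, whose own log2 fold change was -0.01, and use of strand in the counting is not stated. Ckap2l, a spindle protein gene of neural progenitors, had 33.8 and 40.3 CPM in KO and 29.5 and 25.4 in WT, the same order of libraries as Prc1, and stood at 0.43 (SE 0.13, interval 0.11 to 0.75, edgeR unadjusted p = 0.0158, adjusted p = 0.743). It was 0.30 without KO4 and 0.56 without KO2.

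Aspm, known from its role in microcephaly and in the symmetric division of radial glia, had 41.7 and 46.4 CPM in KO and 35.5 and 37.3 in WT. The genotypes did not overlap, and the log2 fold change was 0.28 (SE 0.10, interval 0.03 to 0.52, edgeR unadjusted p = 0.031, adjusted p = 0.743). Tpx2, which activates Aurora A on the spindle, stood at 0.18, Ckap2 at 0.13, Nusap1 at 0.13 and Hmmr at 0.07.

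The chromosome and cytokinesis genes all had values above 0, each with an interval that held 0. Top2a, the topoisomerase that untangles sister chromatids, had 257 and 289 CPM in KO and 239 and 243 in WT. Mki67, the gene of the proliferation marker Ki-67, had 180.2 and 198 in KO and 169 and 166 in WT. In both genes KO4 stood above KO2 by more than the WT libraries differed from each other. Their log2 fold changes were 0.18 (interval -0.04 to 0.41) and 0.18 (interval -0.04 to 0.39), and that of Cdca2, which targets a phosphatase to chromatin in anaphase, was 0.13. Of the cytokinesis genes, Anln (anillin) had 24.4 and 25.4 CPM in KO against 20.4 and 21.8 in WT and stood at 0.24 (SE 0.12, interval -0.04 to 0.52, edgeR unadjusted p = 0.0862, adjusted p = 0.743). Ect2, the exchange factor that activates RhoA at the furrow, stood at 0.16 and Racgap1, its centralspindlin partner, at 0.09.

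**Figure D3:**
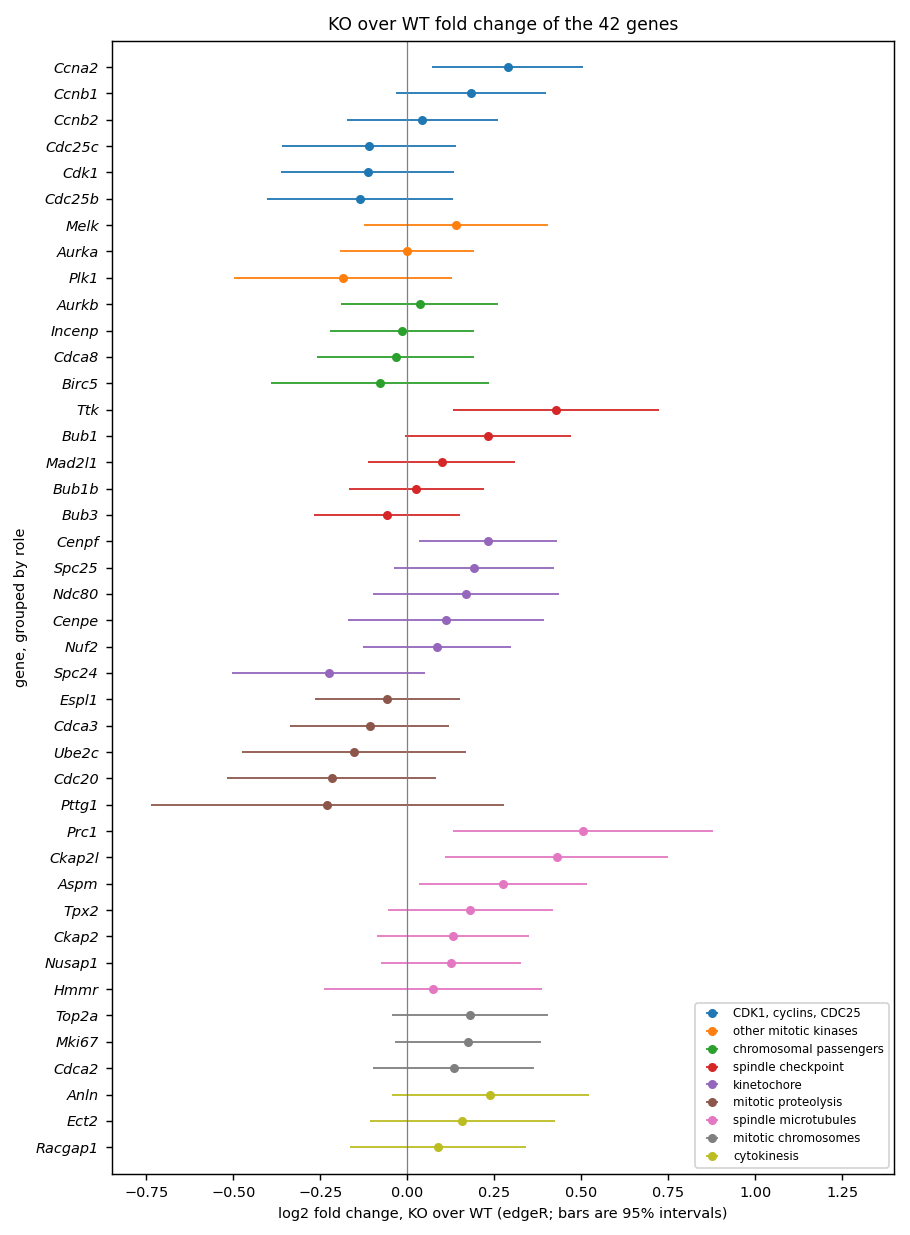
Log2 fold change of each member, KO over WT, from edgeR, with its 95% interval and the role as colour. The 5 mitotic proteolysis genes lie left of 0 and the 7 spindle microtubule genes right of it, and for 36 of the 42 genes the interval holds 0.

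The fold change of a member varied with the base composition of its transcript, whose part in the values was not tested beyond the fit without this trend. Across the 42 members the log2 fold change correlated with the GC content of the longest transcript at Pearson r = -0.63 and Spearman rho = -0.60, and with log2 merged exon length at 0.48 and 0.47. The points are genes measured in the same 4 libraries and are not replicates. Over the 15687 tested genes with a value the same correlations were -0.32 and -0.44 for GC content and 0.15 and 0.24 for length, of the same sign as in the members. The 14 members of lowest GC content (40.1% to 43.4%, with Ttk, Cenpf, Prc1 and Top2a among them) were all above 0 with a median of 0.16. All 1766 tested genes in that range had a median of 0.12, and 75.7% of them lay above 0. The 14 of the middle range (44.1% to 47.8%) had a median of 0.16 with 9 above 0. The 2869 tested genes in that range had a median of 0.08, and 67.4% of them lay above 0. The 14 of highest GC content (47.9% to 56.1%, with Cdc20, Ube2c, Plk1, Spc24 and Espl1 among them) had a median of -0.05. Of these, 4 lay above 0 and 10 below. The 6632 tested genes in that range also had a median of -0.05, and 39.6% of them lay above 0. Within the library pairs, KO2 over WT6 had a members' median of 0.10 and a Pearson correlation with GC content of -0.69. Over all tested genes with a value that correlation was only -0.11. In the other pair, KO4 over WT8, the members had a median of 0.08 and a correlation of -0.52, against -0.30 over all these genes. The members' correlation was thus stronger in the pair where that of all genes was weaker. This order was not particular to the members. Among 43 genes of DNA replication and S phase the Pearson correlation with GC content was also stronger in the pair of KO2 and WT6. It was -0.47 there, against -0.39 in the other pair, and -0.52 with all 4 libraries.

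When the trend with GC content and length was removed from each library, an alternative chosen after seeing the data, the median of the members was 0.04, with 26 of 42 above 0 (50.2% of genes), and 0 members were called. Ccna2 at 0.23, Prc1 at 0.39, Ckap2l at 0.38 and Ttk at 0.33 kept an unadjusted edgeR p under 0.05 there (0.0174, 0.019, 0.0204 and 0.0232), and their edgeR adjusted p was 0.998. These 4 compare with 1.76% of all genes higher at that threshold, and 0 members were lower (1.54%). Cenpf and Aspm stood at 0.09 and 0.15. Cdc20 stood at -0.07, Ube2c at -0.02 and Plk1 at -0.04, nearer to 0 than before, while Pttg1 at -0.25 and Cdc25c at -0.20 did not move towards it.

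**Figure D4:**
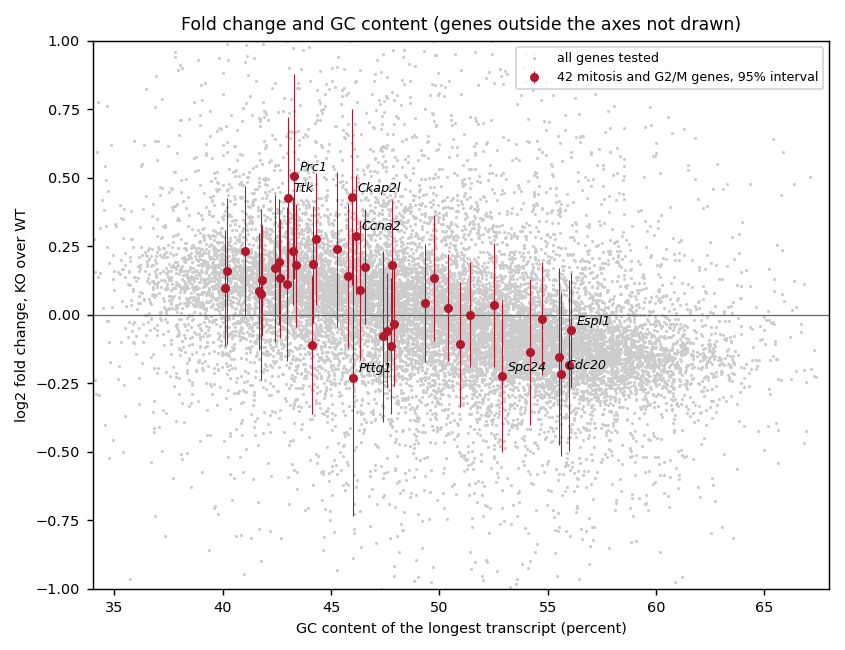
Log2 fold change, KO over WT, against the GC content of the longest transcript in percent, with members in red (bars are 95% intervals) and all tested genes in grey. Both sets fall from left to right, with r = -0.63 for the members and -0.32 for all genes.

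Of the genes in the other cell division lists, 0 were called in either direction by edgeR over all genes. Among 13 mitotic kinesins, 11 lay above 0 with a median of 0.13. Kif11, the motor that separates spindle poles, had the smallest p of them and stood at 0.20. The highest value in the list was 0.39 (SE 0.38), in a gene whose genotypes overlapped. It had 348 and 347 reads in KO against 359 and 127 in WT, so that the value rested on WT8. Among 20 condensin and cohesin genes, which compact chromosomes and hold sisters together, 16 lay above 0 (48.9% of all genes), 14 had both KO values above both WT values (20.1% of all genes), and the median was 0.16, or 0.04 with the GC content and length trend removed and 0.09 without KO4. Ncapg, a condensin I subunit gene, had 320 and 385 reads in KO against 239 and 178 in WT, with the genotypes apart, and stood at 0.62 (SE 0.17, edgeR unadjusted p = 0.00933, adjusted p = 0.743). Ncapg2, its condensin II counterpart, stood at 0.42 and the cohesin loader gene Nipbl at 0.36.

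Inner centromere and outer kinetochore genes (33) had a median of 0.02, with Cenpu at 0.46 and Mis12 at 0.22, and the median was 0.14 without KO2, -0.03 without KO4, 0.07 without WT6 and 0.08 without WT8. APC/C subunits and regulators (17) had a median of -0.02, with the inhibitor gene Fbxo5 at 0.22, Anapc4 at 0.18 and the G1 activator gene Fzr1 at -0.25. Entry and exit kinases and phosphatases (26) had a median of 0.01, with the CDK1 inhibitor kinase gene Wee1 at 0.28, Lats1 at 0.17 and Cdkn3 at -0.28. A further 27 genes of G2/M had a median of 0.05, with Cep55, which acts in abscission, at 0.30, Kpna2 at 0.24 and Ckap5 at 0.21. All these values are log2 fold changes that did not pass.

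The regulators of the programme were uneven. Foxm1 had 1316 and 1551 reads in KO against 1447 and 1198 in WT and stood at -0.02, and Mybl2 (B-Myb) had 733 and 847 in KO and 693 and 747 in WT and stood at -0.01, with the genotypes overlapping in both. The 24 DREAM, MuvB and E2F genes had a median of 0.07, with 16 above 0 and Mybl1 at 0.64 on 71 to 156 reads, Rbbp4 at 0.30 and E2f3 at 0.20. Of 44 S phase genes, 43 were tested and had a median of 0.04, with 27 above 0, and the smallest p were those of Hells at 0.27, Rrm2 at 0.26 and Mcm6 at 0.19, while the highest value was 0.32. The 10 tested G1 cyclins, CDKs and CDK inhibitors had a median of -0.06, with Cdkn1c, an inhibitor of cells leaving the cycle, at -0.52, Ccnd2 at 0.24 and Cdk4 at -0.13. In all 10 the genotypes overlapped. Cdkn1c had 1340 and 1028 reads in KO against 1212 and 1833 in WT, and Ccnd2 had 4005 and 4888 against 4201 and 2675, with WT8 furthest out in both.

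**Figure D5:**
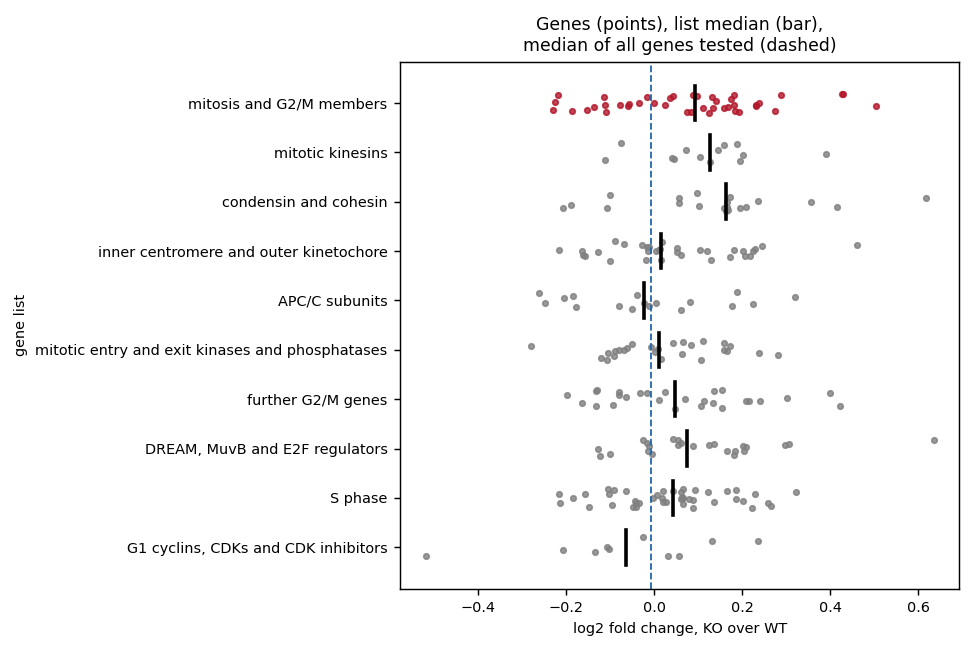
Log2 fold change, KO over WT, of each gene (points) in the member set and in 9 other cell division lists, with the median of each list as a bar and that of all tested genes as a dashed line. Medians run from -0.06 for the G1 list to 0.16 for condensin and cohesin.

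Markers of the tissue and of other cells stood beside these values. Summed over the 42 members the level was 3287 and 3518 CPM in KO and 3160 and 3443 in WT, so that the order of libraries did not separate the genotypes. Radial glia markers (13 of 13 tested) summed to 2425 to 2566 CPM in KO and 2532 to 2667 in WT, intermediate progenitor markers (10 of 10) to 1161 to 1167 and 1155 to 1269, and neuronal markers (14 of 14) to 7712 to 7928 and 7952 to 8108. Erythroid genes summed to 911 to 1006 CPM in KO, 788 in WT6 and 1485 in WT8 (11 of 12 tested), and endothelial, microglial and mesenchymal markers to at most 158, 70.9 and 86.0 CPM, each highest in WT8. Forebrain markers (9 of 9) summed to 1600.1 to 1701 CPM in KO and 1606 to 1822 in WT and divided by gene. Dlx5, of ventral forebrain neurons, had 1591 and 1479 reads in KO but 868 in WT6 and 1463 in WT8, and Six3 had 801 and 717 against 385 and 844, so that WT6, the lowest library for 27 members, was also low in these genes. The median difference of the forebrain list was 0.65 for WT8 over WT6 and 0.60 for KO2 over WT6, whereas KO4 over WT8 gave -0.19. Emx1, of the dorsal forebrain, had 2666 and 2515 reads in KO against 3342 and 3151 in WT and stood at -0.47 (edgeR unadjusted p = 0.000902, adjusted p = 0.743). None of the marker genes of these 8 lists was called by edgeR, and their part in the values of the members was not tested.

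The authors' deposited tables compare 1 KO library with 1 WT library each, so their p-values compare libraries. In the authors' deposited table for KO2 over WT6, 15 members were higher and 1 lower at an adjusted p under 0.05 (9.06% and 9.15% of genes), and 33 had a log2 above 0 (51.8%). In the authors' deposited table for KO4 over WT8 the counts were 22 and 9 (25.2% and 16.1% of genes), 29 had a log2 above 0 (56.6%), and in neither table did a member carry the authors' mark of significance. Xist had 6 and 8105 reads in KO against 19 and 6094 in WT, so each deposited pair holds embryos of 1 sex, and pair and sex cannot be told apart. Total counts were 16470090 to 18136745 reads per library and each member had 145 to 5297 reads in every library.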

How the data were processed

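RNA was extracted with Trizol per the labels' protocols and each library was assigned to its genotype by its title. Per the submitters' processing notes the tools were HTSeq 0.6.0, TopHat2 2.0.12 and Bowtie2 2.2.3, and mm9 is listed as the build, but the deposited positions of 39 of 42 members were those of GENCODE M21 on GRCm38, so positions are given on GRCm38. Per the file headers the authors deposited read counts per gene, which are whole numbers with a different total in each library. The authors also deposited a CPM per library, the ratio (fold change) of KO over WT, its log2, and a p-value and adjusted p-value per gene, by a test that the sources used here do not give.

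Counts were fitted in R 4.3.3 with edgeR 4.0.16 (quasi-likelihood F-test, genotype as the only term, TMM, filterByExpr, Benjamini-Hochberg adjustment over 15708 genes, threshold 0.05). The SE was taken as the log2 fold change over the square root of F. Library differences use log2 CPM with a prior count of 2. Whether the embryos were littermates is not in the labels. The p-values reflect only how far these 4 samples scatter, and that scatter may be technical. By their Xist reads, both sexes were present within each genotype. With genotype as the only term, the scatter therefore also includes any difference between the sexes. DESeq2 1.42.0, limma 3.58.1 (voom), other scalings and filters, the deposited pair as a block and the fit without each library were alternatives, and the fit was tested on simulated data. GC content and lengths came from GENCODE M21 and promoters from RefSeq. The members and lists were chosen with earlier results of these data known. Members are all named; statistics in full go to the 10 with the smallest p and the 3 highest per length, and of each other list the 3 genes with the smallest p are named, except 1 that is not reported here; Foxm1, Mybl2, Rccd1, Exosc9, Dlx5, Six3 and Emx1 were named after their values were seen. Exons of 11 members share bases with another gene, mostly on the opposite strand, and Ccnb1 and Ccnb2 have named pseudogenes, so their counts are uncertain to that extent.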

Additional observations from a re-analysis of the deposited data

How the results depend on the processing

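No member was called under any of 13 alternatives, DESeq2 and limma-voom among them, and the smallest adjusted p of a member was 0.305 (edgeR, Ttk without WT8). The members' median log2 fold change was 0.09 in the main fit and 0.03 to 0.15 over all alternatives. Each change was smaller than the spread of the library medians within a genotype (0.07). With 2 libraries a genotype, that spread and the change on leaving 1 out rest on the same difference. The comparison therefore cannot show that the median was stable. With the deposited pair as a replicate block 3 members had an unadjusted p under 0.05 (3 also with the GC content and length trend removed), 2 genes of all were called lower and no other call changed. The deviations of KO2 from KO4 and of WT6 from WT8 correlated at -0.03 across 10055 genes. Leaving out 1 library, the count of members with an unadjusted p under 0.05 ran from 0 to 13 (13 without WT6, of which 9 lay below 0), all genes called higher from 0 to 67 and lower from 0 to 37. DESeq2 called 2 genes higher and 2 lower. Without a library the separation of genotypes was not counted.

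Of the members, 23 kept their sign under all 13 alternatives, 19 of them above 0 and 4 below, and 19 changed sign at least once. Without single libraries the ranges that crossed 0 were -0.0081 to 0.0091 for Aurka, -0.049 to 0.12 for Aurkb, -0.26 to 0.13 for Birc5, -0.016 to 0.072 for Bub1b, -0.12 to 0.011 for Bub3, -0.035 to 0.13 for Ccnb2, -0.27 to 0.013 for Cdc25b, -0.12 to 0.062 for Cdca8 and -0.24 to 0.022 for Cdk1. They were -0.11 to 0.0037 for Espl1, -0.071 to 0.24 for Hmmr, -0.075 to 0.047 for Incenp, -0.37 to 0.025 for Plk1, -0.48 to 0.073 for Pttg1, -0.0013 to 0.19 for Racgap1 and -0.34 to 0.066 for Ube2c. Aurka stood at 0.0079 with upper quartile scaling and 0.0013 with a filter of a mean of at least 1 CPM. With the GC content and length trend removed, first without and then with the replicate block, Aurka stood at 0.049 and 0.049, Incenp at 0.075 and 0.074, Mad2l1 at -0.039 and -0.036, Cenpe at -0.018 and -0.015, Nuf2 at -0.031 and -0.028, Espl1 at 0.020 and 0.020 and Hmmr at -0.034 and -0.026. The cause of these changes was not tested.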
